A study of Mus musculus with 7 samples.

Results

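The mitotic spindle, checkpoint and cyclin B genes described here are 38 named genes whose products build and police the mitotic spindle. They were taken by symbol from a table of 24319 rows, and all 38 were found, Sgol2 under the symbol Sgol2a. They fall into 5 role classes: 6 spindle checkpoint genes, 10 kinetochore and centromere genes, 7 mitotic kinase and passenger complex genes, 7 motor and spindle genes, and 8 cyclin, Cdk1 and anaphase genes. Each gene has 1 FPKM value, a fragment count scaled to transcript length and library depth, in each of 7 libraries of mouse embryos. All 38 also reached the level needed for testing, an FPKM of at least 1 in at least 2 libraries, as did 12272 genes in all.

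The embryos were made by somatic cell nuclear transfer (SCNT): a cumulus cell was put into an oocyte that had been stripped of its own chromosomes. Every library carries the strain label B6D2F1, the genotype label wild type and the stage label 2-cell, and stands for a pool of 50 to 100 embryos, while the treatment protocol shared by all of them names blastocysts as well. For CROC+K+M (2 libraries) the recipient oocytes had been vitrified and warmed, and 10 µM melatonin, a pineal hormone and antioxidant, was given. For CROC+K (3 libraries) the recipient oocytes had been vitrified and warmed and the label names no melatonin. For FOC+K (2 libraries) the oocytes were fresh. All 3 groups, FOC+K included, received injected mRNA of Kdm4a, a histone H3 lysine demethylase. All were also activated with strontium chloride, EGTA and cytochalasin B. Cytochalasin B blocks the extrusion of a polar body.

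At entry into mitosis, Cdk1 bound to cyclin B is activated and the spindle forms. Kinetochores, protein assemblies on the centromeres, attach the chromosomes to microtubules, and those without attachment make the checkpoint proteins hold Cdc20 back. Once all are attached, Cdc20 turns on the anaphase-promoting complex, which has cyclin B and securin destroyed, and separase cuts the cohesin that ties the sister chromatids. A mouse egg waits in metaphase of meiosis with high Cdk1 activity, and its cytoplasm holds stored mRNA of many of these genes, which is translated or cleared around the first divisions of the embryo.

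Libraries differed in ways that the groups do not explain, and these touch the results. CROC+K+M replicate 1 had Fabp3 at 24404 FPKM, against at most 4.36 in the others, and Krt8, Krt18 and Cdx2 at 300.2, 750.3 and 6.97 FPKM. All 17 of a list of trophectoderm markers reached 1 FPKM in it, with a summed level of 26360 FPKM, against 5 to 7 markers and 60.5 to 138 FPKM elsewhere. Rn45s, the ribosomal RNA precursor, was at 175 to 266 FPKM in both CROC+K+M libraries and in CROC+K replicates 2 and 3, against 1047 to 2114 FPKM in CROC+K replicate 1 and both FOC+K libraries. The FPKM of all rows summed to 726297 to 1017995 in the libraries with low Rn45s and to 552356 to 585039 in those with high Rn45s. All 14 oocyte markers reached 1 FPKM in every library, and the 19 cumulus cell markers summed to 14.9 to 27.7 FPKM. Of 24 markers of the transient 2-cell stage, 19 were in the table, and they summed to 585 and 290 FPKM in CROC+K+M, 204, 1264 and 1852 FPKM in CROC+K and 721 and 267 FPKM in FOC+K. The 10 inner cell mass markers summed to 375 and 63.1 FPKM in CROC+K+M, 69.1, 111 and 223 FPKM in CROC+K and 93.0 and 96.8 FPKM in FOC+K. The value of 1 fragment at low genes put the depth of the libraries within a range of 1.55 to 1, if the values were not rescaled. In pooled embryos, fewer cells of a type and less RNA per cell cannot be told apart.

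Among the 38 genes the level ran over more than 3 orders of magnitude. Pttg1, which encodes securin, the inhibitor of separase, had the highest mean over the 7 libraries, 6251 FPKM. Birc5, the gene of the passenger protein survivin, followed at 1044 FPKM and Ccnb1, the gene of cyclin B1, at 875 FPKM. The lowest were Numa1, which encodes a protein that gathers microtubule minus ends at the spindle poles, at 2.65 FPKM, and Kifc1, a minus-end motor gene, at 3.15 FPKM. By class, the cyclin and anaphase genes had a median of 179 FPKM over their means, the kinase and passenger genes 60.1 FPKM, the kinetochore genes 43.5 FPKM, the motor and spindle genes 41.6 FPKM and the checkpoint genes 19.8 FPKM. FPKM is scaled to transcript length, but other differences between genes are not corrected, so levels and ratios across genes are rough. The annotation used is not stated, and some of the 38 have overlapping genes or named pseudogenes.

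**Figure D1:**
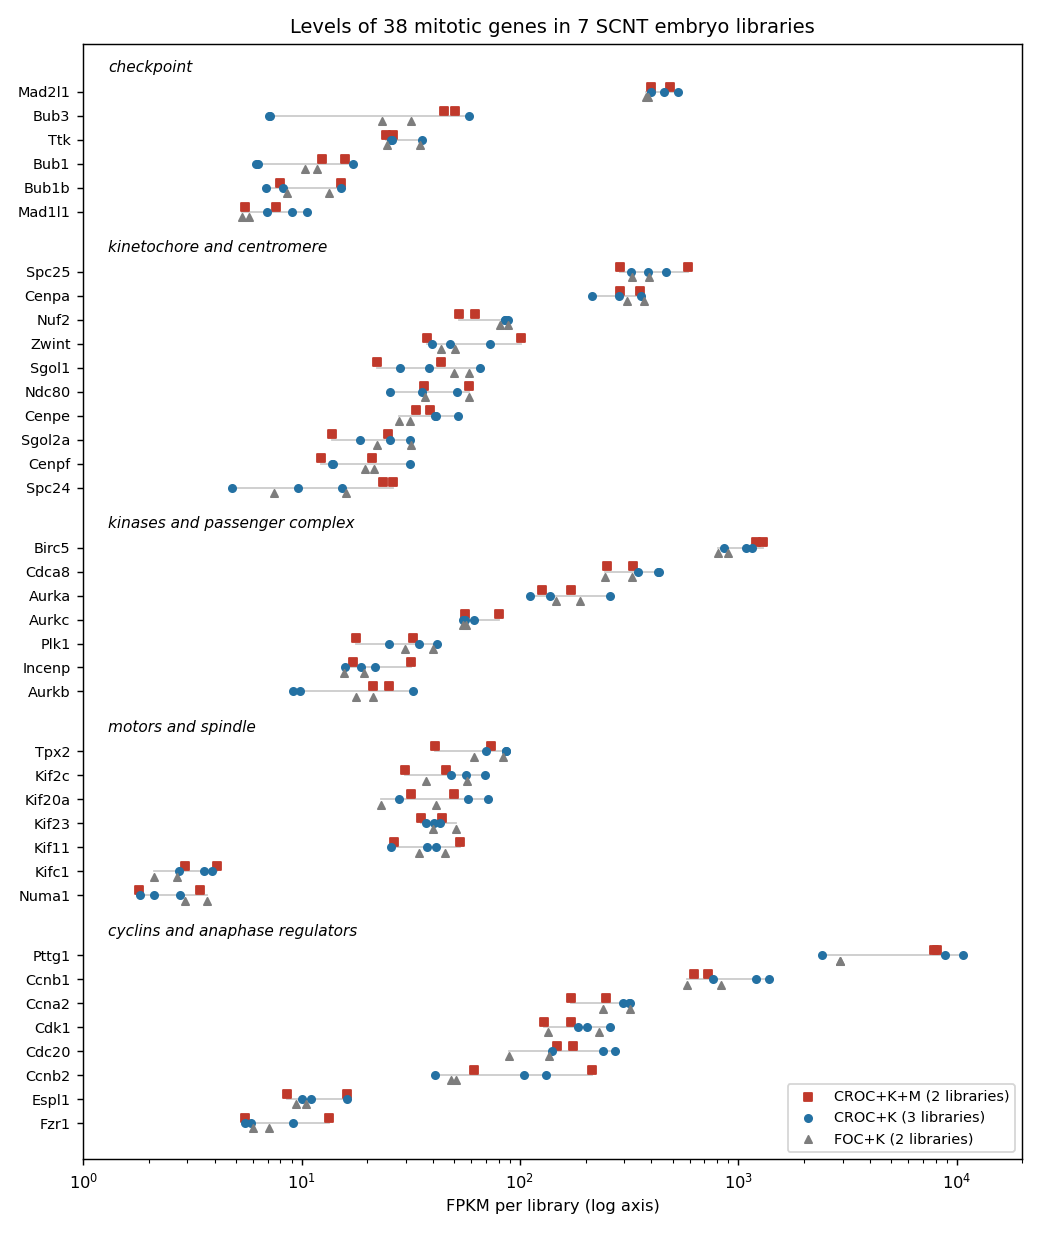
FPKM of the 38 genes in each of the 7 libraries on a log axis, ordered within 5 role classes by mean level. Red squares are CROC+K+M, blue circles CROC+K and grey triangles FOC+K, and a grey line joins the lowest and the highest library of a gene. Pttg1 lies furthest right, between 2406 and 10638 FPKM, and Bub3 has the longest line.

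The median gene of the 38 was 2.16 times as high in its highest library as in its lowest, beside 3.36 times over all genes tested. In 4 of them (Mad2l1, Ttk, Aurkc and Kif23) the highest library was less than 1.5 times the lowest. In 27 it was 1.5 to 3 times the lowest. In 7 it was more than 3 times the lowest: Bub3 (8.25 times), Spc24 (5.47), Ccnb2 (5.23), Pttg1 (4.42), Aurkb (3.55), Kif20a (3.08) and Cdc20 (3.04). Of all genes tested, 3.15% stayed under 1.5 times and 55.1% went over 3 times. Low genes vary more, and among the 5130 genes with a mean of at least 10 FPKM, a level that 34 of the 38 had, the shares were 5.73% and 34.0%. All 7 of the most variable genes had a mean of at least 10 FPKM.

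Among the checkpoint genes, Mad2l1, whose product holds Cdc20 back, had 400.3 and 485 FPKM in CROC+K+M, 396, 458 and 527 in CROC+K and 378 and 387 in FOC+K. It was the highest checkpoint gene in every library, and both FOC+K libraries lay under the other 5, while CROC+K+M and CROC+K overlapped. Bub3, which encodes the protein that brings Bub1 and BubR1 to kinetochores, had 50.5 and 45.0 FPKM in CROC+K+M, 58.4, 7.19 and 7.08 in CROC+K and 23.5 and 31.8 in FOC+K. CROC+K replicates 2 and 3 stood far below the other 5 libraries, and CROC+K replicate 1 was the highest of all. Bub1, a kinase gene of the same module, had 12.4 and 15.8 FPKM in CROC+K+M, 17.2, 6.16 and 6.31 in CROC+K and 10.4 and 11.7 in FOC+K, with the same CROC+K libraries lowest and highest. Bub1b, the gene of BubR1, ranged from 6.87 to 15.2 FPKM, Mad1l1, the gene of the Mad2 partner at kinetochores, from 5.36 to 10.6 FPKM, and Ttk, the gene of the kinase Mps1, from 24.4 to 35.5 FPKM.

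The levels of partners in the checkpoint stood in a different proportion from library to library. The ratio of Bub1b to Bub3 was 0.157 and 0.338 in CROC+K+M, 0.259, 1.15 and 0.97 in CROC+K and 0.367 and 0.421 in FOC+K. It was near or above 1 only in CROC+K replicates 2 and 3. Mad2l1 was at 43.1 to 87.9 times the level of Mad1l1, and this ratio overlapped between all 3 groups.

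The kinetochore genes Ndc80, Nuf2, Spc24 and Spc25 encode the subunits of the Ndc80 complex, which binds microtubules. Spc25 was the highest kinetochore gene, with 286 and 588 FPKM in CROC+K+M, 465, 384 and 322 in CROC+K and 391 and 326 in FOC+K, and the CROC+K+M libraries were its lowest and its highest. Spc24 had 26.2 and 23.5 FPKM in CROC+K+M, 15.4, 9.67 and 4.78 in CROC+K and 7.50 and 15.9 in FOC+K. Both CROC+K+M libraries lay above the other 5. Nuf2 had 62.5 and 52.8 FPKM in CROC+K+M, 85.0, 88.0 and 85.6 in CROC+K and 81.4 and 87.9 in FOC+K, with both CROC+K+M libraries below the other 5, which spanned only 81.4 to 88.0 FPKM. Ndc80 had 36.2 and 58.7 FPKM in CROC+K+M, 51.4, 25.4 and 35.5 in CROC+K and 58.4 and 36.6 in FOC+K and overlapped between the groups.

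Spc24 was the lowest transcript of the complex in every library. Spc25 stood at 10.9 and 25.0 in CROC+K+M, 30.2, 39.7 and 67.3 in CROC+K and 52.2 and 20.5 in FOC+K times the level of Spc24. Ndc80 and Nuf2 were closer, with an Ndc80 to Nuf2 ratio of 0.289 to 1.11 that passed 1 only in CROC+K+M replicate 2.

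Cenpa, the gene of the histone H3 variant that marks centromeres, had 286 and 354 FPKM in CROC+K+M, 358, 215 and 284 in CROC+K and 369 and 309.5 in FOC+K. Its groups overlapped. Cenpe, the gene of a kinetochore motor that helps chromosomes align, had 33.6 and 38.9 FPKM in CROC+K+M, 41.4, 41.0 and 51.8 in CROC+K and 31.4 and 28.1 in FOC+K, and the 3 CROC+K libraries were its highest. Of the shugoshin genes, which protect centromeric cohesin, Sgol1 had 22.2 and 43.5 FPKM in CROC+K+M, 65.7, 28.3 and 38.2 in CROC+K and 58.2 and 50.1 in FOC+K, and its highest 3 libraries were CROC+K replicate 1 and FOC+K. Sgol2a had 13.7 and 24.8 FPKM in CROC+K+M, 25.4, 18.5 and 31.5 in CROC+K and 31.6 and 22.2 in FOC+K, below Sgol1 in all 7 libraries (1.21 to 2.59 times). Cenpf, a large kinetochore protein gene, ranged from 12.2 FPKM in CROC+K+M replicate 1 to 31.4 FPKM in CROC+K replicate 1, and Zwint, which encodes a linker of checkpoint proteins to the kinetochore, from 37.3 FPKM in CROC+K+M replicate 2 to 101 FPKM in CROC+K+M replicate 1.

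The chromosomal passenger complex joins an Aurora kinase to Incenp, survivin and borealin and corrects wrong attachments. Birc5, the survivin gene, had 1199.9 and 1295 FPKM in CROC+K+M, 861, 1089.6 and 1155 in CROC+K and 809.6 and 898 in FOC+K. Both CROC+K+M libraries lay above the other 5. Cdca8, the borealin gene, had 250.4 and 330.0 FPKM in CROC+K+M, 346, 435 and 427 in CROC+K and 325 and 245 in FOC+K, with the 3 CROC+K libraries highest. Incenp, the scaffold gene, was far lower, from 15.7 to 31.6 FPKM, so that Birc5 stood at 39.5 to 69.5 times and Cdca8 at 10.4 to 27.7 times its level.

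The 3 Aurora kinase genes kept their order in every library, Aurka above Aurkc above Aurkb. Aurka, which acts at spindle poles, had 126 and 172 FPKM in CROC+K+M, 259.7, 111 and 137 in CROC+K and 189 and 146 in FOC+K. Aurkc, the form best known from germ cells and early embryos, had 56.2 and 80.2 FPKM in CROC+K+M, 56.1, 54.7 and 61.6 in CROC+K and 55.1 and 56.6 in FOC+K, and apart from CROC+K+M replicate 2 it lay within 54.7 to 61.6 FPKM. Aurkb, the passenger kinase of somatic cells, had 21.3 and 25.1 FPKM in CROC+K+M, 32.4, 9.83 and 9.11 in CROC+K and 17.7 and 21.3 in FOC+K. As with Bub3, CROC+K replicates 2 and 3 were lowest and CROC+K replicate 1 highest. The ratio of Aurkc to Aurkb was 2.64 and 3.19 in CROC+K+M, 1.73, 5.57 and 6.76 in CROC+K and 3.11 and 2.66 in FOC+K. Plk1, a kinase gene with roles from mitotic entry to cytokinesis, had 17.8 and 32.4 FPKM in CROC+K+M, 41.8, 34.6 and 25.3 in CROC+K and 39.9 and 29.9 in FOC+K, lowest in CROC+K+M replicate 1.

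Of the motor and spindle genes, Tpx2, whose product activates Aurora A on spindle microtubules, had 40.9 and 73.8 FPKM in CROC+K+M, 85.9, 70.1 and 86.2 in CROC+K and 83.6 and 61.4 in FOC+K. CROC+K+M replicate 1 was the lowest by a wide margin. Kif2c, the gene of a kinesin that shortens microtubules, had 29.6 and 45.9 FPKM in CROC+K+M, 48.1, 56.6 and 69.5 in CROC+K and 57.4 and 37.2 in FOC+K, and both CROC+K+M libraries lay under all CROC+K ones. Kif20a, a kinesin gene of the spindle midzone, had 50.0 and 31.7 FPKM in CROC+K+M, 28.0, 57.6 and 71.4 in CROC+K and 41.3 and 23.2 in FOC+K, highest in CROC+K replicates 2 and 3. Kif11, the gene of the motor that pushes the poles apart, ranged from 25.8 to 53.3 FPKM, and Kif23, a motor gene of cytokinesis, from 35.4 to 51.0 FPKM. Numa1 had 3.43 and 1.80 FPKM in CROC+K+M, 2.77, 1.83 and 2.11 in CROC+K and 3.70 and 2.94 in FOC+K, and Kifc1 stayed between 2.11 and 4.09 FPKM.

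Ccnb1 had 729 and 624 FPKM in CROC+K+M, 767, 1211 and 1376 in CROC+K and 835 and 585 in FOC+K. CROC+K replicates 2 and 3 stood above the other 5 libraries. Ccnb2, the gene of cyclin B2, had 213 and 61.9 FPKM in CROC+K+M, 40.7, 131 and 105 in CROC+K and 48.2 and 51.1 in FOC+K, with CROC+K+M replicate 1 far above its group mate. Ccnb1 exceeded Ccnb2 in all 7 libraries, by 3.42 and 10.1 in CROC+K+M, 18.8, 9.23 and 13.2 in CROC+K and 17.3 and 11.4 in FOC+K times. The ratio was lowest in CROC+K+M replicate 1. Ccna2, the cyclin A2 gene, had 172 and 247 FPKM in CROC+K+M, 318, 316 and 297 in CROC+K and 318 and 240.4 in FOC+K, and the CROC+K libraries were close together. Cdk1 ranged from 129 to 259 FPKM and was exceeded by Ccnb1 by 3.62 to 5.98 times.

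Among the anaphase regulators, Pttg1 had 7874 and 8155 FPKM in CROC+K+M, 2406, 8851 and 10638 in CROC+K and 2914 and 2918 in FOC+K. The 3 libraries with high Rn45s (CROC+K replicate 1 and FOC+K) lay together between 2406 and 2918 FPKM, and the other 4 between 7874 and 10638 FPKM. Its target separase, encoded by Espl1, ranged only from 8.58 to 16.1 FPKM, so Pttg1 stood at 239 to 965 times the Espl1 level. Cdc20, which encodes the activator of the anaphase-promoting complex in metaphase, had 148 and 175 FPKM in CROC+K+M, 140.3, 241 and 271 in CROC+K and 136 and 89.1 in FOC+K. Both FOC+K libraries lay under all others. Fzr1, the gene of Cdh1, the activator in late mitosis and G1, had 13.4 and 5.49 FPKM in CROC+K+M, 5.52, 5.89 and 9.12 in CROC+K and 6.00 and 7.12 in FOC+K, so Cdc20 exceeded Fzr1 in every library, by 11.0 to 40.9 times.

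Promoters of genes of late cell-cycle stages are known to share a CHR element, bound by the MuvB complexes, and CCAAT boxes, bound by NF-Y. RefSeq promoters (GRCm38.p6, 250 bases before to 50 after a start) were matched by symbol for 32 of the 38 genes. The letters TTTGAA or TTCGAA, searched on both strands, were in 20 of the 32 (62.5%), against 21.7% of 27025 genes. TTTGAA alone was in 18 (56.2%), against 20.2%, and TTCGAA in 3 (9.38%), against 1.80%. CCAAT, on either strand, was in 24 (75.0%), against 41.1%, and 18 (56.2%), against 8.61%, had both kinds of letters. None of these words contains another, though neighbouring matches can share an end letter, and a match is a description of the letters only.

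The 120 bases before the start are shown for Cdc20 (chr4:118437344-118437463), Bub3 (chr7:131560250-131560369, the first of its 2 starts), Ccnb2 (chr9:70421555-70421674), Pttg1 (chr11:43425982-43426101) and Ccnb1 (chr13:100786487-100786606), because Bub3, Ccnb2, Pttg1 and Cdc20 are the genes with a matched promoter among the 7 that differed by more than 3 times between libraries, and Ccnb1 and Ccnb2 are the B-type cyclins. Spc24, Aurkb and Kif20a, the other genes of those 7, had no matched promoter. Bub3 is on the plus strand and the other 4 genes are on the minus strand. Each is written 5′ to 3′ along its gene, and capitals mark the CCAAT letters and, on either strand, the TTTGAA letters.
Cdc20: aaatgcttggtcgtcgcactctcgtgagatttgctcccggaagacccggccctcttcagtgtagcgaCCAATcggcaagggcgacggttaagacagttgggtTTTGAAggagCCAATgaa
Bub3: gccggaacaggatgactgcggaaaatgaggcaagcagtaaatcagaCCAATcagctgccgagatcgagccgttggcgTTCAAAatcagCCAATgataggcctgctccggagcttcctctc
Ccnb2: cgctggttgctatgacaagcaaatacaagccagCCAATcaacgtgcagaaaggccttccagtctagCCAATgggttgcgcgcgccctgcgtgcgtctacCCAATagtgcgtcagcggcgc
Pttg1: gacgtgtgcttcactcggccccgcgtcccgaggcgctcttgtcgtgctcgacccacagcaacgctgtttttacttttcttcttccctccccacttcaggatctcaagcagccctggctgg
Ccnb1: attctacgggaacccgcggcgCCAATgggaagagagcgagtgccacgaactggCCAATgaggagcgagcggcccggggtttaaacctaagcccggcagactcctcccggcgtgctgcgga
In the Cdc20 stretch TTTGAA lies 18 bases before the start, with CCAAT at 53 and 8 bases before it. Bub3 has the reverse complement of TTTGAA 43 bases before its start, between 2 CCAAT boxes. Ccnb2 has 3 CCAAT boxes, at 87, 54 and 21 bases, and its TTTGAA letters fall outside the stretch, 167 bases before and 5 bases after the start. Ccnb1 has CCAAT at 99 and 67 bases and no CHR letters in the window. Pttg1 and Birc5, the genes with the highest levels, had neither kind of letters, and nothing about the factors follows from that. CROC+K replicate 1 was more than 2 times from its group mates, either way, in 7 of the 38 genes, and 5 of these had a matched promoter. Of the 5, Bub3, Bub1, Cenpf and Ccnb2 had both kinds of letters, as had 18 of the 32 matched genes, and Pttg1 had neither. Bub3, Bub1 and Cenpf were higher in that library and Ccnb2 and Pttg1 lower. So few genes, chosen by their values in 1 library, cannot show a link between letters and level.

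**Figure D2:**
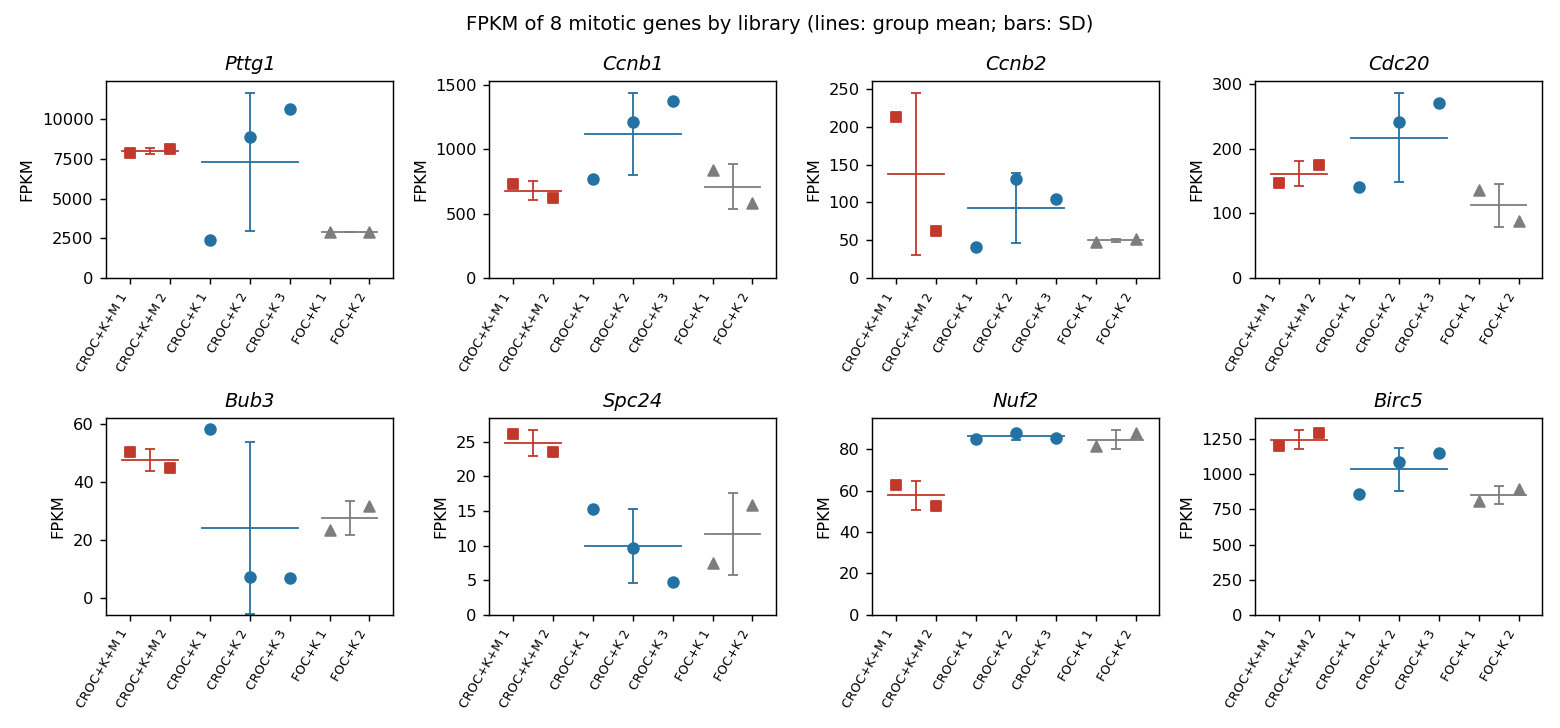
FPKM of 8 genes, 1 panel each with its own linear axis that includes 0, in CROC+K+M (red squares), CROC+K (blue circles) and FOC+K (grey triangles). Points are libraries, horizontal lines are group means and bars are SD. Pttg1 is at most 2918 FPKM in CROC+K replicate 1 and FOC+K, Bub3 is near 7 FPKM in CROC+K replicates 2 and 3, and Nuf2 is lowest and Spc24 highest in CROC+K+M.

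Melatonin is the labelled difference between CROC+K+M and CROC+K, both from vitrified oocytes. Of the 38 genes 0 passed the test in limma after Benjamini-Hochberg adjustment over all 12272 genes, and 0% of all genes did. At an unadjusted p under 0.05, 1 of the 38 was higher (6.69% of all genes) and 1 was lower (3.75% of all genes). The groups did not overlap in 2 genes that were higher (12.3% of all genes) and 7 that were lower (11.2% of all genes). The median log2 difference of the 38 genes was -0.032, beside 0.058 over all genes tested, with 18 higher and 20 lower means in CROC+K+M.

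The gene with the smallest p was Spc24, at 24.8 ± 1.89 FPKM in CROC+K+M (SD, n = 2) and 9.94 ± 5.29 FPKM in CROC+K (SD, n = 3). Its log2 difference was 1.36 ± 0.50 (SE), with adjusted p = 0.427 in limma. Nuf2 averaged 57.7 ± 6.90 FPKM in CROC+K+M and 86.2 ± 1.57 FPKM in CROC+K, a log2 difference of -0.58 ± 0.24 with adjusted p = 0.465. These are subunits of the same complex, with differences of opposite sign. The next on the higher side were Bub3 (1.62 ± 0.82, adjusted p = 0.522), Bub1 (0.61 ± 0.46) and Aurkb (0.65 ± 0.53). On the lower side they were Ccna2 (-0.59 ± 0.27), Ccnb1 (-0.68 ± 0.34) and Kif2c (-0.62 ± 0.33). None of these differences passed the adjusted test.

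CROC+K+M replicate 1, the library with trophectoderm markers, moved with part of these values, and its part in them was not tested. Without it, Spc24 was at 1.29 ± 0.65, Nuf2 at -0.70 ± 0.27 and Bub3 at 1.54 ± 1.08 on the log2 scale, close to the values with all libraries. Ccna2 was at -0.32 ± 0.30 and Kif2c at -0.32 ± 0.37, both nearer to 0. Ccnb2 was at 0.47 ± 0.63 with all libraries and -0.41 ± 0.61 without it, and Zwint at 0.25 ± 0.46 with it and -0.46 ± 0.40 without it. These are 2 of 11 genes whose sign turned without that library, the others being Mad2l1, Cenpf, Sgol1, Sgol2a, Aurka, Kif23, Numa1, Fzr1 and Espl1. With all libraries Mad2l1 (-0.055 ± 0.255), Kif23 (-0.023 ± 0.264) and Espl1 (-0.041 ± 0.367) were already close to 0. The share of all genes whose sign turned was not counted, here or in the other fits. The median of the 38 genes without it was 0.075, beside 0.033 over all genes, and 1 of the 38 (Nuf2) had an unadjusted p under 0.05, when 8.38% of all genes did. In that fit the remaining CROC+K+M library is assumed to vary like the other groups. CROC+K+M replicate 1 was more than 2 times as high as replicate 2 in 3 of the 38 genes (Ccnb2, Fzr1 and Zwint), as in 23.3% of all genes, and under 0.5 times as high in 2 (Kif11 and Spc25), as in 14.7%.

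Bub3 and Aurkb also depended on CROC+K replicate 1. Without that library Bub3 was at 2.58 ± 0.28 (adjusted p = 0.132 in limma), Aurkb at 1.21 ± 0.27 and Bub1 at 1.05 ± 0.29. Spc24 was at 1.72 ± 0.46, Ccnb1 at -0.93 ± 0.26 and Nuf2 at -0.59 ± 0.23. In 6 of the 38, Ccnb2 and Pttg1 among them, the sign turned without it. Without CROC+K replicate 2 or 3, Aurkb was at 0.39 and 0.34 and Bub1 at 0.38 and 0.39. Without CROC+K replicate 1, the 6 genes Bub3, Aurkb, Bub1, Spc24, Ccnb1 and Nuf2 had an unadjusted p under 0.05, when 16.3% of all genes did, and 0 passed adjustment. Leaving it out leaves only libraries with low Rn45s in both groups, 2 against 2, so the same numbers are the comparison within that side, with a median of -0.043 for the 38 genes beside 0.067 over all genes.

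Storage of the recipient oocyte is the labelled difference between CROC+K and FOC+K. Here too 0 of the 38 genes passed the adjusted test, and 0% of all genes did. Unadjusted, 1 was higher at p under 0.05 (1.14% of all genes) and 0 were lower (1.05%). The groups did not overlap in 6 that were higher (9.66%) and 1 that was lower (9.47%). The median log2 difference was 0.064, beside -0.027 over all genes.

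Cdc20 had the smallest p, with 217 ± 68.5 FPKM in CROC+K (SD, n = 3) and 113 ± 33.2 FPKM in FOC+K (SD, n = 2), a log2 difference of 0.92 ± 0.36 (SE) and adjusted p = 0.9996 in limma. Cenpe was at 0.57 ± 0.26, Ccnb1 at 0.63 ± 0.34 and Cdca8 at 0.50 ± 0.28. On the lower side Numa1 was at -0.42 ± 0.36, Bub3 at -0.84 ± 0.82, Cenpa at -0.27 ± 0.30 and Ndc80 at -0.35 ± 0.40, all with adjusted p = 0.9996. By class, all 8 cyclin and anaphase genes had a higher mean log2 level in CROC+K (median 0.46), and all 8 were above the median of all genes. They ran from 0.029 in Fzr1 to 1.06 in Pttg1. After scaling to equal FPKM sums, which put the median of all genes at -0.30, 4 of 8 were above 0 (median 0.12) and all 8 were above the median of all genes. After quantile normalization 7 of 8 were above both (median 0.24). The kinetochore genes had 4 of 10 higher with a median of -0.13, and the checkpoint genes 2 of 6 with a median of -0.095. The cyclin and anaphase genes were not all higher in CROC+K replicate 1 alone against FOC+K. There Ccnb2 was at -0.28, Fzr1 at -0.21 and Pttg1 at -0.28, and the others of the class at 0.017 (Espl1) to 0.35 (Cdc20).

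Several of these values rested on 1 library. Without FOC+K replicate 1 Ndc80 was at -0.024 and Cenpa at -0.15. Without FOC+K replicate 2 Ccnb1 was at 0.38, Cdca8 at 0.30 and Ndc80 at -0.68. Without CROC+K replicate 2 Cenpa was at -0.083, Ndc80 at -0.11 and Bub3 at -0.37, and without CROC+K replicate 3 Bub3 was at -0.36.

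CROC+K replicate 1 stood apart from its group mates in some of these genes. It was more than 2 times as high as both in 4 of the 38 (Aurkb, Bub1, Bub3 and Cenpf), as in 13.3% of all genes. It was under 0.5 times as high as both in 3 (Ccnb2, Kif20a and Pttg1), as in 7.96% of all genes. Of the CROC+K libraries it alone had high Rn45s, like both FOC+K libraries. Without it, Pttg1 was at 1.73 ± 0.21 (adjusted p = 0.321 in limma) and Bub3 at -1.80 ± 0.28 (adjusted p = 0.321), against 1.06 ± 0.61 and -0.84 ± 0.82 with it. Cdc20 (1.21 ± 0.28), Ccnb1 (0.88 ± 0.26) and Kif20a (1.02 ± 0.38) on the higher side and Aurkb (-0.97 ± 0.27) and Bub1 (-0.73 ± 0.29) on the lower side also had an unadjusted p under 0.05. That made 7 of the 38, when 12.1% of all genes did, and 0 passed adjustment. Cenpa was at -0.45 and Ndc80 at -0.60 without it.

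Without CROC+K replicate 1 the groups differ in Rn45s throughout, so oocyte storage and Rn45s level cannot be told apart there. Within the high side, CROC+K replicate 1 against the 2 FOC+K libraries, the median of the 38 genes was 0.17, beside 0.027 over all genes, with no replicate in CROC+K. On that side Bub3 was at 1.07 and Pttg1 at -0.28, both opposite in sign to their values over all libraries, and Cdc20 was at 0.35. Over all 7 libraries, 5 of the 38 genes were higher in all 4 libraries with low Rn45s than in the other 3 (Mad2l1, Birc5, Ccnb2, Cdc20 and Pttg1), as were 6.66% of all genes. Sgol1 was lower throughout, as were 5.22% of all genes. The libraries with low Rn45s also had the higher FPKM sums, so Rn45s level and library scale cannot be told apart here. With equal FPKM sums, Birc5 was at -0.049 in CROC+K+M against FOC+K, while Pttg1 was at 0.86, Ccnb2 at 0.61 and Sgol1 at -1.35. In CROC+K against FOC+K, Cdc20 was at 0.58 with that scaling. The split itself was not tested with that scaling.

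**Figure D3:**
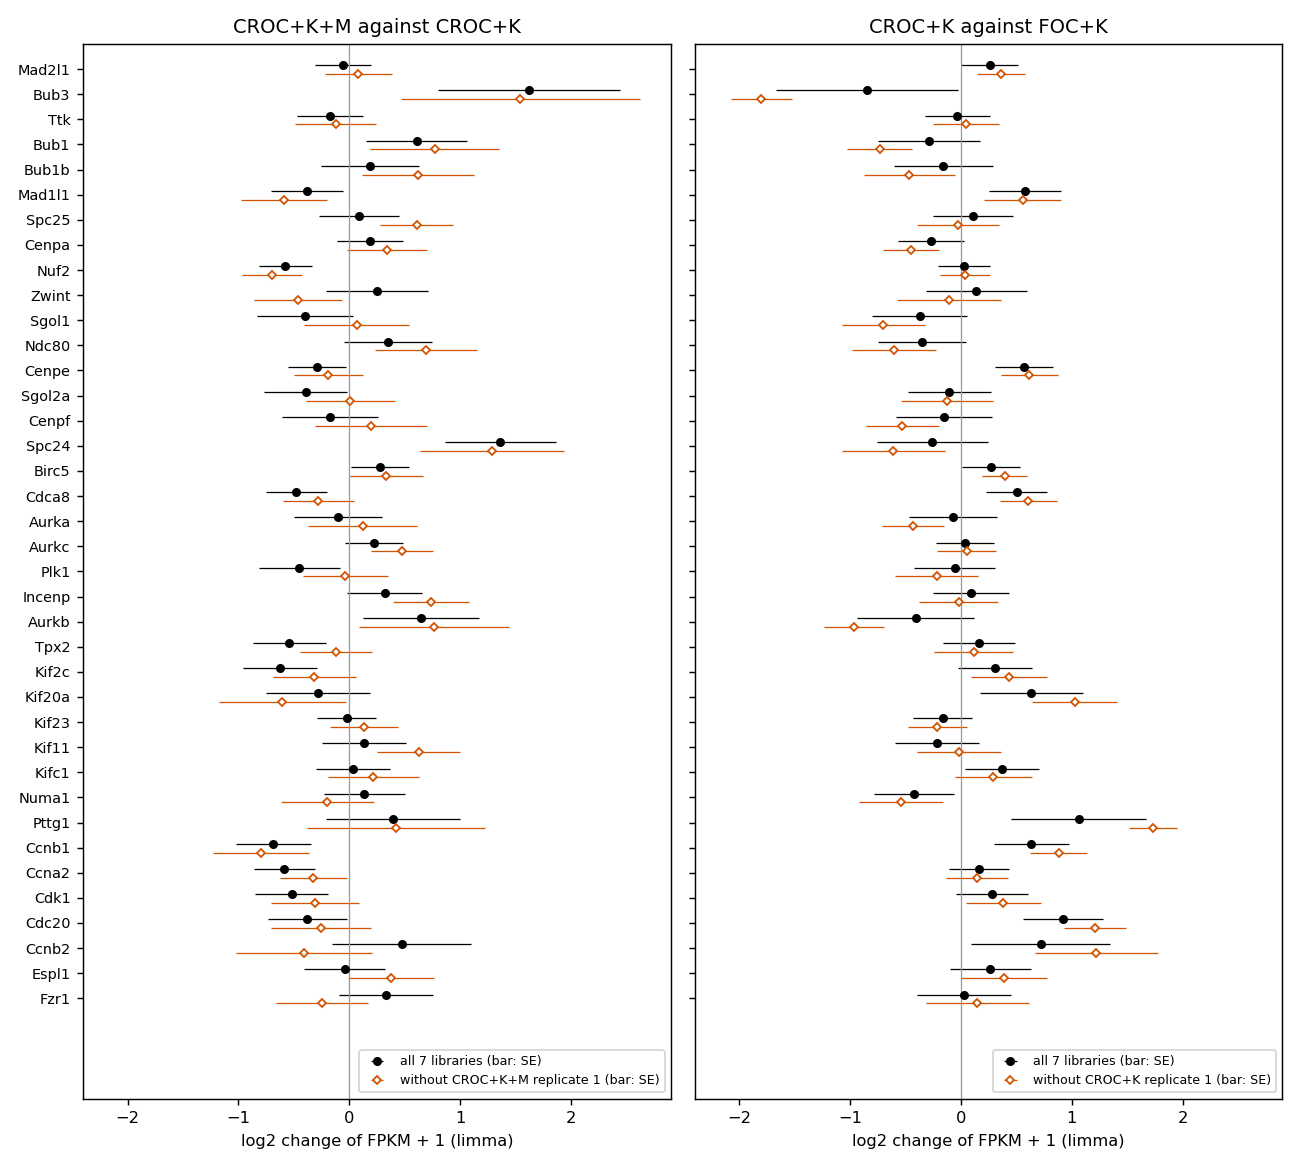
Log2 difference of FPKM + 1 for each of the 38 genes, CROC+K+M against CROC+K on the left and CROC+K against FOC+K on the right. Black circles use all 7 libraries, open orange diamonds leave out CROC+K+M replicate 1 (left) or CROC+K replicate 1 (right), and bars are SE. On the right Pttg1 is at 1.06 with all libraries and 1.73 without CROC+K replicate 1, and Bub3 at -0.84 and -1.80.

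CROC+K+M and FOC+K differ in both oocyte storage and melatonin, and also in Rn45s throughout, so these cannot be told apart in this comparison. Adjusted, 0 of the 38 genes passed the test (0% of all genes), and unadjusted 0 were higher (4.46% of all genes) and 0 lower (2.00%) at p under 0.05. The groups, 2 libraries each, did not overlap in 10 genes that were higher (21.3%) and 2 that were lower (19.8%). The median was 0.11, beside 0.037 over all genes. Pttg1 had the smallest p, at 8014 ± 199 FPKM in CROC+K+M and 2916 ± 2.65 FPKM in FOC+K (SD, n = 2 each), a log2 difference of 1.46 ± 0.67 with adjusted p = 0.757 in limma. Spc24 was at 1.10 ± 0.55, Birc5 at 0.55 ± 0.29 and Ccnb2 at 1.20 ± 0.69 on the higher side. Nuf2 was at -0.55 ± 0.26, Sgol1 at -0.78 ± 0.47, Ccna2 at -0.42 ± 0.30 and Plk1 at -0.50 ± 0.40 on the lower side. Without CROC+K+M replicate 1, Ccnb2 was at 0.31 ± 0.65, Sgol1 at -0.31 ± 0.50, Ccna2 at -0.16 ± 0.32 and Plk1 at -0.09 ± 0.41, each nearer to 0, while Pttg1 was at 1.48 ± 0.85 and Nuf2 at -0.67 ± 0.29. Of the 38 genes 9 turned their sign without it. Without CROC+K+M replicate 2 Ccnb2 was at 2.08, Sgol1 at -1.24, Ccna2 at -0.69 and Plk1 at -0.92. Without FOC+K replicate 1 Spc24 was at 0.61, Ccna2 at -0.22 and Plk1 at -0.30. Without CROC+K replicate 1, which is in neither group but adds to the estimate of the spread, 3 of the 38 (Pttg1, Birc5 and Bub3, all higher) had an unadjusted p under 0.05, when 8.74% of all genes did. The 3 comparisons share their CROC+K, CROC+K+M or FOC+K libraries, so their values are not independent.

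Kdm4a, whose mRNA was injected, was at 2797 and 689 FPKM in CROC+K+M, 497, 4051 and 4949 FPKM in CROC+K and 2014 and 816 FPKM in FOC+K. These values do not separate injected mRNA from the embryos' own. The level of Kdm4a varied more within groups than between them. The 38 genes were set against it over the 7 libraries on log scales, after their values had been seen. Spearman's rho was at least 0.8 in 1 gene (4.80% of all genes) and at most -0.8 in 3 (5.96%). Counts of this size are near what those shares give for 38 genes. Bub1b had r = -0.975 (exact permutation p = 0.001, adjusted over all genes 0.160) and rho = -0.929 (exact permutation p = 0.0067, adjusted 0.216). Aurkb had r = -0.895 (exact permutation p = 0.0046, adjusted 0.200) and rho = -0.964 (exact p = 0.0028, adjusted 0.183). Kif20a ran the other way, with r = 0.940 (exact p = 0.004, adjusted 0.196) and rho = 0.893 (exact p = 0.0123, adjusted 0.243).

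None of these relations passed the adjustment over all genes. Without the 2 libraries farthest from the median Kdm4a level (CROC+K replicate 1 and CROC+K+M replicate 2), r was -0.950 for Bub1b, -0.787 for Aurkb and 0.996 for Kif20a. Bub1 was the third gene with a negative rho of that size, -0.857 (exact p = 0.0238, adjusted 0.290). The sides of the Rn45s split hold 4 and 3 libraries, too few for a correlation within each. The summed markers of the transient 2-cell stage moved with Kdm4a: from the lowest to the highest Kdm4a library they were at 204, 290, 267, 721, 585, 1264 and 1852 FPKM. Their part in these relations was not tested.

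**Figure D4:**
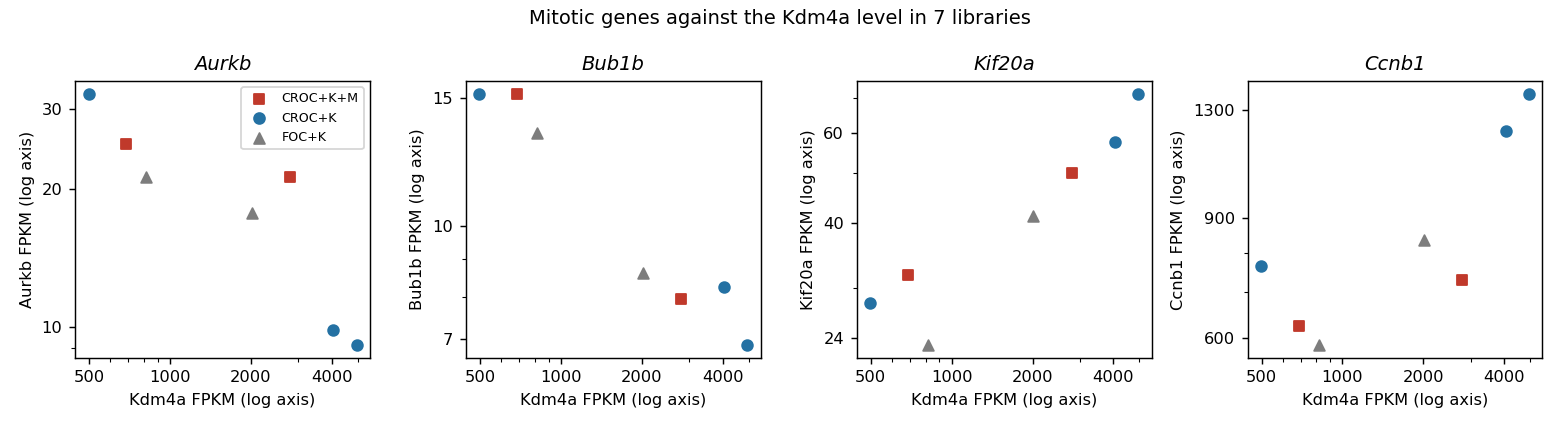
FPKM of Aurkb, Bub1b, Kif20a and Ccnb1 against Kdm4a FPKM in the 7 libraries, both on log axes, with CROC+K+M as red squares, CROC+K as blue circles and FOC+K as grey triangles. Aurkb and Bub1b are lower and Kif20a is higher where Kdm4a is higher, and Ccnb1 has a looser relation (r = 0.80, rho = 0.68). The genes shown were chosen after their values were seen, and none passed the adjustment over all genes.

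Other genes of the pathway were counted in 6 lists with 166 symbols, chosen by function. In the 3 comparisons 0 genes of any list passed the adjusted test. The values of these lists are given only from the fit that includes CROC+K+M replicate 1, the library with trophectoderm markers. Its part in them was not tested. The anaphase-promoting complex and its inhibitors (18 tested) had 3 genes higher and 1 lower at an unadjusted p under 0.05 in CROC+K+M against CROC+K, 1 higher and 0 lower in CROC+K against FOC+K, and 2 higher and 0 lower in CROC+K+M against FOC+K. At that threshold 6.69% of all genes were higher and 3.75% lower in CROC+K+M against CROC+K, 1.14% and 1.05% in CROC+K against FOC+K, and 4.46% and 2.00% in CROC+K+M against FOC+K, and the counts of the other lists are set at the same threshold. Cdc26, a small subunit gene, averaged 63.9 ± 28.2 FPKM in CROC+K+M (SD, n = 2) and 27.1 ± 5.00 FPKM in CROC+K (SD, n = 3), a log2 difference of 1.15 ± 0.35 (SE). Anapc10, a substrate-binding subunit gene, was at 1.07 ± 0.35 in that comparison, with a wide spread in CROC+K+M (158 ± 79.1 FPKM, SD, n = 2). Against FOC+K they were at 1.68 ± 0.38 and 1.32 ± 0.39. In CROC+K against FOC+K, the subunit genes Anapc15 (0.78 ± 0.26) and Anapc16 (0.53 ± 0.25) had the smallest p. The median of this list was 0.073 in CROC+K+M against CROC+K, 0.12 in CROC+K against FOC+K and 0.23 in CROC+K+M against FOC+K.

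The other kinetochore and centromere genes (32 tested) had 1 higher and 1 lower in CROC+K+M against CROC+K, 2 higher and 0 lower in CROC+K against FOC+K, and 2 higher and 0 lower in CROC+K+M against FOC+K. Cenpw, a histone-fold kinetochore gene, was at 1.12 ± 0.31 and 1.22 ± 0.34 on the log2 scale in CROC+K+M, against CROC+K and against FOC+K. Bod1, which encodes a phosphatase inhibitor at kinetochores, was at -0.62 ± 0.25 against CROC+K, and Cenpk, the gene of a constitutive kinetochore subunit, at 0.71 ± 0.30 against FOC+K. Cenpn, whose product binds Cenpa nucleosomes, was at 0.70 ± 0.26 and Pmf1, a Mis12 complex gene, at 0.60 ± 0.24 in CROC+K against FOC+K. The medians of the list were -0.014, 0.057 and -0.14 in the same order of comparisons.

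Other cyclins and Cdk1 regulators (25 tested) had 1 gene higher in CROC+K+M against CROC+K and 1 lower in CROC+K against FOC+K, and this was the same gene, Cdkn1a. Cdkn1a encodes the Cdk inhibitor p21, a target of p53. Its level was 43.3 ± 12.3 FPKM in CROC+K+M (SD, n = 2), 18.3 ± 5.91 FPKM in CROC+K (SD, n = 3) and 31.8 ± 0.323 FPKM in FOC+K (SD, n = 2). The log2 differences were 1.21 ± 0.34 and -0.81 ± 0.34, with adjusted p = 0.408 and 0.9996 in limma. Cdk4, a G1 kinase gene, was at 1.0 ± 0.47 and Cks1b, a Cdk subunit gene, at 0.73 ± 0.43 in those comparisons. In CROC+K+M against FOC+K, Mastl, the Greatwall kinase gene, was at -0.66 ± 0.32 and Wee2, an oocyte kinase gene that restrains Cdk1, at -0.51 ± 0.28.

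Cohesin and condensin genes (20 tested) had 1 higher and 1 lower in CROC+K+M against CROC+K and 0 in the comparisons with FOC+K. Ncaph2, a condensin II subunit gene, was at 1.0 ± 0.33 in CROC+K+M against CROC+K, -0.44 ± 0.33 in CROC+K against FOC+K and 0.55 ± 0.36 in CROC+K+M against FOC+K. Cdca5, the gene of the cohesin-stabilizing protein sororin, was at -0.83 ± 0.34 and 0.67 ± 0.34 in CROC+K+M against CROC+K and in CROC+K against FOC+K. Smc1b, a meiotic cohesin gene, was at -0.55 ± 0.37 in CROC+K+M against FOC+K.

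Other spindle, centrosome and cytokinesis genes (43 tested) had 0 higher and 3 lower in CROC+K+M against CROC+K (6.69% and 3.75% of all genes), 0 in CROC+K against FOC+K, and 1 higher and 1 lower in CROC+K+M against FOC+K (4.46% and 2.00%). The γ-tubulin genes Tubg2 and Tubg1 were both at -0.82 in CROC+K+M against CROC+K (SE 0.26 and 0.29). They are near-identical copies, so how fragments were shared between them is uncertain. Kif22, a chromosome-arm motor gene, was at 0.65 ± 0.36 and Kif18a, a gene of a motor that dampens chromosome movements, at -0.46 ± 0.27 in CROC+K against FOC+K. In CROC+K+M against FOC+K Kif18a was at -0.75 ± 0.30 and Haus1, an augmin subunit gene, at 0.87 ± 0.37.

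Transcription regulators of cell-cycle genes (21 tested) include the MuvB, E2F and NF-Y genes. They had 1 higher and 2 lower in CROC+K+M against CROC+K (6.69% and 3.75% of all genes), 0 in CROC+K against FOC+K, and 0 higher and 3 lower in CROC+K+M against FOC+K (4.46% and 2.00%). The MuvB core gene Lin9 averaged 7.43 ± 0.989 FPKM in CROC+K+M (SD, n = 2), 14.4 ± 3.24 FPKM in CROC+K (SD, n = 3) and 16.5 ± 0.373 FPKM in FOC+K (SD, n = 2), log2 differences of -0.85 ± 0.31 against CROC+K and -1.05 ± 0.34 against FOC+K. Lin37, also of MuvB, was at 0.91 ± 0.31 in CROC+K+M against CROC+K and E2f4, a repressor gene, at -0.65 ± 0.26 in CROC+K+M against FOC+K. In CROC+K against FOC+K the MuvB gene Lin52 was at 0.63 ± 0.29 and the NF-Y subunit gene Nfyc at -0.62 ± 0.29.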

How the data were processed

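Total RNA of 7 embryo pools, each with a RIN over 7.0, was sequenced, per the labels' protocols. The deposited table holds FPKM, in mouse build mm9. Per the submitters' processing notes, the authors used Cuffnorm, Cufflinks (2.2.1), STAR (2.5.2b) and R (3.3.2). The annotation and any scaling between libraries are not given in those notes. Rows carry symbols and no coordinates, and no mm9 genome was used here. The deposited FPKM were used without rescaling, as log2(FPKM + 1), which understates the changes of low genes. Of 24319 rows, 1275 of small RNA and ribosomal RNA genes were left out, and 12272 genes with an FPKM of at least 1 in at least 2 libraries were tested.

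The test was limma 3.58.1 with an intensity trend, in R 4.3.3, in 1 fit of the 7 libraries (4 residual degrees of freedom), two-sided, with Benjamini-Hochberg adjustment over all tested genes and a threshold of 0.05. Errors of log2 differences are limma's SE. The procedure was tested on simulated data. Correlations with Kdm4a used exact permutation over 5040 orders in Python 3.11.15 with scipy 1.17.1, and figures matplotlib 3.10.9. Replicates are the labels' biological replicates, with no animal or day given, so p-values set group differences against the spread between pools within groups. That spread includes CROC+K replicate 1 with its high Rn45s and CROC+K+M replicate 1 with its trophectoderm markers. Depth is not stated, and counts were not used.

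The 38 genes and all lists were chosen with earlier results of these data known. Named genes are the 2 with the highest mean in each role class, up to 4 higher and 4 lower genes with the smallest p in each comparison, paralog sets, and the 2 genes with the smallest p in each other list. Genes named for their spread between libraries, or for Kdm4a, were chosen after their values were seen. In the GENCODE M21 annotation, genes on the opposite strand overlap Mad1l1, Plk1, Kif20a (Cdc23), Numa1 (Il18bp), Ccna2 (Exosc9), Cdc20 (Elovl1) and Fzr1 (Mfsd12), and Ccnb1 and Ccnb2 have named pseudogenes. Use of strand in counting is not stated, so fragments of these pairs may not be separated.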

Additional observations from a re-analysis of the deposited data

How the results depend on the processing

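In all 15 alternatives 0 of the 38 genes passed the adjusted test in each comparison, and the smallest adjusted p of a named gene was 0.123. Of 360 values of named genes under these alternatives, 352 kept their direction and 0 passed the threshold. The 8 that reversed did so under scaling or with the Rn45s split as a term. In CROC+K+M against FOC+K, Birc5 was at -0.049 with equal FPKM sums and -0.18 after quantile normalization. With the Rn45s term, Pttg1 was at -0.55, Ccnb2 at -0.31 and Sgol1 at 0.20 in CROC+K+M against FOC+K, and Bub3 was at 1.07, Cenpa at 0.082 and Ndc80 at 0.15 in CROC+K against FOC+K. With that term the sides are linked only through the CROC+K libraries. The 360 values are of genes with the smallest p in the main fit, and some alternatives cannot change a log2 difference. The share that kept its direction is thus no measure of stability. Over all 38 genes, 11 turned their sign without CROC+K+M replicate 1 in CROC+K+M against CROC+K and 9 in CROC+K+M against FOC+K. Without CROC+K replicate 1, 6 turned in CROC+K+M against CROC+K and 4 in CROC+K against FOC+K.

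The yardstick for the median log2 difference of the 38 genes was the pooled SD within groups of the libraries' median log2 level, 0.18. With equal FPKM sums the median difference moved by more than that in all comparisons. It was then -0.27 in CROC+K+M against CROC+K, -0.25 in CROC+K against FOC+K and -0.45 in CROC+K+M against FOC+K. The medians of all genes were -0.14, -0.30 and -0.44 there. With that scaling 10, 9 and 4 of the 38 had higher means, against 18, 22 and 21 without it, while 16, 21 and 19 were above the median of all genes, against 17, 22 and 19 without it. After quantile normalization the median in CROC+K+M against FOC+K was -0.29, beside -0.081 over all genes. With each library left out in turn, the medians ran from -0.21 to 0.075 in CROC+K+M against CROC+K, from -0.010 to 0.17 in CROC+K against FOC+K and from -0.090 to 0.20 in CROC+K+M against FOC+K.

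With each CROC+K library left out, counts at an unadjusted p under 0.05 were 0 to 6, 0 to 7 and 0 to 3. Of all genes, 7.21% to 16.3%, 1.11% to 12.1% and 5.58% to 8.74% reached it in these comparisons. Array weights gave 1, 8 and 1, when 8.93%, 14.2% and 7.67% of all genes reached it. Without CROC+K+M replicate 2, 658 and 546 of all genes passed adjustment in CROC+K+M against CROC+K and against FOC+K, and 0 of the 38 did. That fit leaves CROC+K+M with replicate 1 alone, the library with trophectoderm markers, which is assumed to vary like the other groups. Same-numbered libraries deviated from their group means with correlations of -0.457 to 0.0297. In a group of 2 libraries these deviations mirror each other, so the values cannot show whether the numbers pair the samples. With a replicate block, 0 of the 38 had an unadjusted p under 0.05 in each comparison, with medians of -0.025, 0.12 and 0.11. The share of all genes at that threshold was not counted for the block. Among the 38 genes, low values limit Kifc1 and Numa1 most.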
